A study of Mus musculus with 10 samples.

Results

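A set of 47 genes of the interferon response was followed in murine pancreatic tumors grown with or without dextrose in the drinking water. The 47 mouse genes form a fixed list by symbol of interferon-stimulated genes, nucleic acid sensors, the transcription factors of the pathway and its receptors. All 47 were found among the 55359 genes of the deposited table, and all 47 were among the 24560 genes tested. By role they comprised 25 genes grouped as effectors, 6 sensors and their adaptor, 4 transcription factors, 8 interferon-inducible GTPases and 4 receptor chains. The effectors include proteins that bind or block viral RNA or particles, and also other enzymes and regulators such as Usp18, Trim25 and Samhd1. Mb21d1 is listed under its newer name Cgas in the annotation.

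The tumors were KPC orthotopic tumors, that is, luciferase-expressing K8484 cells of a murine line carrying Trp53 R172H that had been implanted in the pancreas when the hosts, C57BL/6 J mice, were 10 weeks old. Tumors of 5 normoglycemic mice drinking regular water (CTRL) were compared with tumors of 5 mice drinking 30% dextrose water (D30) for 14 days. All 10 tumors descend from 1 cell line and grew in mice with an intact immune system, so that the RNA of each came from tumor cells and host cells together. The study asked how high glucose changes the transcriptome of such tumors. Sample titles use the word PDX, while the source given for each tumor is the KPC K8484 line. Table columns N1, N2, N4, N5 and N6 held the CTRL tumors and T1, T2, T4, T5 and T7 the D30 tumors, and values of single tumors are given in this order throughout.

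Cells sense foreign or misplaced nucleic acid with cytosolic proteins such as RIG-I, MDA5 and cGAS, whose signals lead to the production of type I interferon. Type I interferon acts through the receptor chains Ifnar1 and Ifnar2 and a complex with Stat2 and Irf9, which binds the interferon-stimulated response element (ISRE) of target promoters, whereas interferon gamma acts through Ifngr1 and Ifngr2 at gamma-activated sites (GAS). In tumors these genes are expressed by cancer cells and by infiltrating immune cells.

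Recovered reads numbered 29192261 to 42122304 per tumor. The tumors expressed the epithelial keratin Krt18 at 44920 to 148886 normalized counts, while Epcam, also an epithelial marker, ranged from 0 to 191. T4 stood apart from the other 9 tumors: its genes in the lowest eighth of GC content lay 0.64 above the median of the tumors on the log2 scale and those in the highest eighth 0.82 below it, and its shortest transcripts lay 0.86 above and its longest 0.63 below. N1 showed a smaller trend with GC content, of 0.43 and -0.46. T5 had the fewest genes with a read, 20482, where the other tumors had 23446 to 25912. Values of members without T4 are given where they end or make a call, turn the direction or move the value by over 1.5 times. Fewer cells of a type and less RNA per cell cannot be told apart in whole tumors.

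The promoters of some of these genes carry the letters of the ISRE, and stretches around them are shown as examples. RefSeq promoters (GRCm38.p6, 250 bases before to 50 after the start site) were matched for 33 of the 47 members, without Ifi27, Mx1, Mx2, Oas2, Rtp4, Usp18, Parp9, Parp14, Dhx58, Zbp1, Tmem173, Gbp4, Gbp6 and Iigp1. The letters GAAANNGAAA, searched on both strands, stood in 16 of the 33 (48.5%) and in 3.78% of the 14443 tested genes with a promoter. The GAS letters TTCNNNGAA stood in 10 of the 33 (30.3%) and in 8.79% of the tested genes. The ISRE letters were found in 5 of 5 GTPases, 8 of 17 effectors, 2 of 3 sensors, 1 of 4 transcription factors and 0 of 4 receptors. Matches of both motifs were counted separately and could overlap. The lines show 7 members with the letters, among them a member that rose in D30 (Oas1a), the ubiquitin-like Isg15, a factor of the pathway itself (Stat2) and a GTPase (Gbp7). Each runs 5′ to 3′ along the gene's strand, and capitals mark the ISRE letters or, where they lie on the other strand, TTTCNNTTTC.
Oas1a: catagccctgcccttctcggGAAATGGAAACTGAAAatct
Isg15: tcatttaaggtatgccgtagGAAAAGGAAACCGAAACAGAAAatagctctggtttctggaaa
Bst2: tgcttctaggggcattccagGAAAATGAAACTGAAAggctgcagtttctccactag
Ifit1: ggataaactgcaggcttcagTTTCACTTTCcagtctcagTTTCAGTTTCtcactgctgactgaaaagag
Ifit3: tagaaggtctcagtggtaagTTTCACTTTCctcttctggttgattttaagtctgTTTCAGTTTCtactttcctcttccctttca
Stat2: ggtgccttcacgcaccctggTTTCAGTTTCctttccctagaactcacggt
Gbp7: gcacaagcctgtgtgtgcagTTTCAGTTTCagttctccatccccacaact

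The Oas1a stretch lies at chr5:120907526-120907565 on the minus strand, directly before the start site, and holds 2 overlapping ISRE matches, the first of which begins 20 bases before that site. Isg15 (chr4:156200855-156200916, minus strand) holds 3 overlapping matches that begin 78 bases before its start, and Bst2 (chr8:71537567-71537622, minus strand) holds 2 overlapping matches that begin 130 bases before it. On the plus strand, the stretches of Ifit1 (chr19:34640765-34640833) and Ifit3 (chr19:34583353-34583436) each hold 2 separate matches, and those of Stat2 (chr10:128270256-128270305) and Gbp7 (chr3:142530263-142530312) each hold 1. The Ifit3b stretch (chr19:34607749-34607832, plus strand) has the same letters as that of Ifit3, and the longest identical run of the promoters of these paralogs was 169 bases. Several matched members had no match to the ISRE letters in this window. They were Ifit2, Ifi44, Ifi35, Oasl1, Oasl2, Cmpk2, Samhd1, Xaf1, Trim25, Mb21d1, Irf1, Irf7, Irf9, Ifnar1, Ifnar2, Ifngr1 and Ifngr2. A match is a description of the letters and not a site of binding measured here.

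Few members passed the test, and those that did rose in D30 and belonged to the group of effectors. Oas1a, an enzyme that makes the 2-5A messenger upon binding double-stranded RNA, was 3.70-fold higher in D30, and Mx1 was 2.37-fold higher. These were the 2 members called higher by limma's moderated test on log2(normalized count + 1) at an adjusted p under 0.05, against 1.4% of all tested genes, and 0 members were called lower, against 1.36%. Over all genes 344 were called higher and 334 lower, or 240 higher and 624 lower with reads scaled by library size alone. By unadjusted p under 0.05, 15 of the 47 members passed, where 4258 of the 24560 tested genes did. Of the 47 members 35 had a higher and 12 a lower mean log2 level in D30, and with reads scaled by library size alone 29 were higher. The median log2 fold change of the members was 0.31, where that of all tested genes was -0.06.

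In 5 members (Oas1a, Mx1, Ifi27, Oasl1 and Dhx58) every D30 tumor lay above every CTRL tumor, a pattern shown by 2.87% of all tested genes. In 1 member, Ifit2, every D30 tumor lay below every CTRL tumor, as in 3.32% of all tested genes. Any gene without overlap has an exact two-sided permutation p of 0.00794, the smallest that 5 tumors against 5 can give. For these 6 members that p therefore restates the lack of overlap and adds no support. DESeq2 on the recovered reads called 10 members higher (Oas1a, Mx1, Ifi27, Oasl1, Bst2, Usp18, Oas2, Dhx58, Irf7 and Tmem173), against 5.04% of the genes for which it gave an adjusted p. It called 1 member lower (Ifit2), against 3.49%. edgeR's quasi-likelihood test called 5 members higher (Oas1a, Mx1, Ifi27, Oasl1 and Bst2), against 2.67% of the genes it tested, and 0 lower, against 1.46%. With 1 tumor left out, T4, limma called 9 members higher (Ifi27, Mx1, Oas1a, Oas2, Oasl1, Bst2, Dhx58, Tmem173 and Irf7), against 3.32% of the genes, and 2 lower (Ifit2 and Iigp1), against 3.11%. After removal of each tumor's trends with GC content and transcript length, 4 members were called higher (Oas1a, Mx1, Oasl1 and Irf7), against 2.5%, and 0 lower, against 2.18%.

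**Figure D1:**
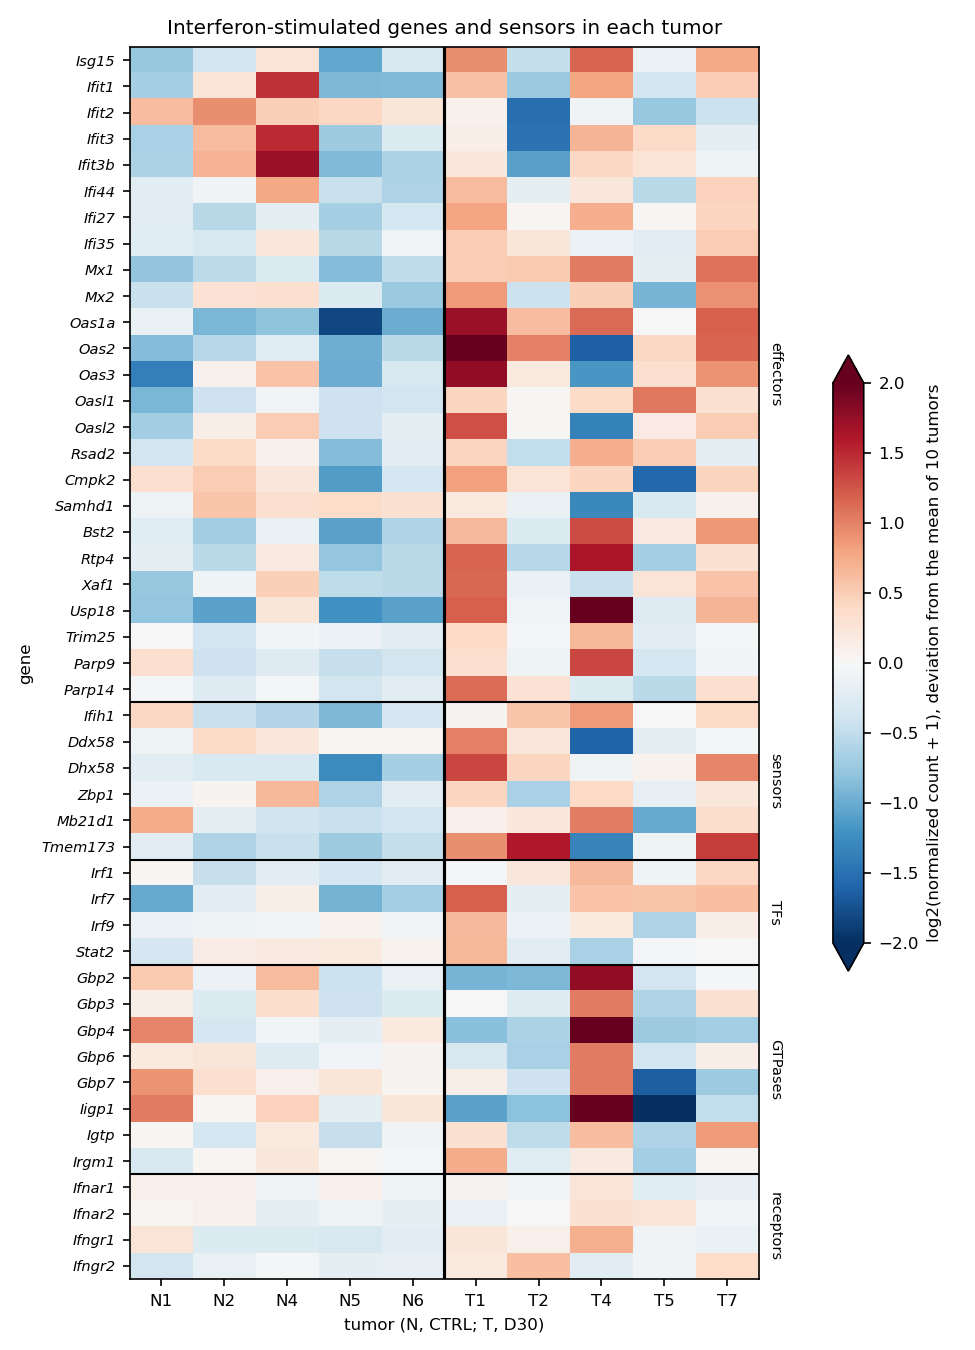
Deviation of log2(normalized count + 1) from the mean of the 10 tumors for each of the 47 members (rows, grouped by role; TFs, transcription factors) in each tumor (columns; N, CTRL; T, D30). T1 is high across effectors, sensors and transcription factors, whereas T4 is high in the Gbp genes and Iigp1 and low in Oas2, Oas3, Oasl2, Samhd1, Ddx58 and Tmem173.

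The tumors of 1 group differed widely from each other. T4 had the highest value of all 10 tumors in 19 members and T1 in 14, while N5 had the lowest in 14 and T5 in 11. Within the CTRL group N4 was highest in 24 members and N5 lowest in 26. Within the D30 group T4 was highest in 22 members and T5 lowest in 22. The mean log2 level of all 47 members, as a deviation from the mean of the tumors, ranged from -0.50 to 0.16 in CTRL and from -0.26 to 0.53 in D30, so that the groups overlapped.

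**Figure D2:**
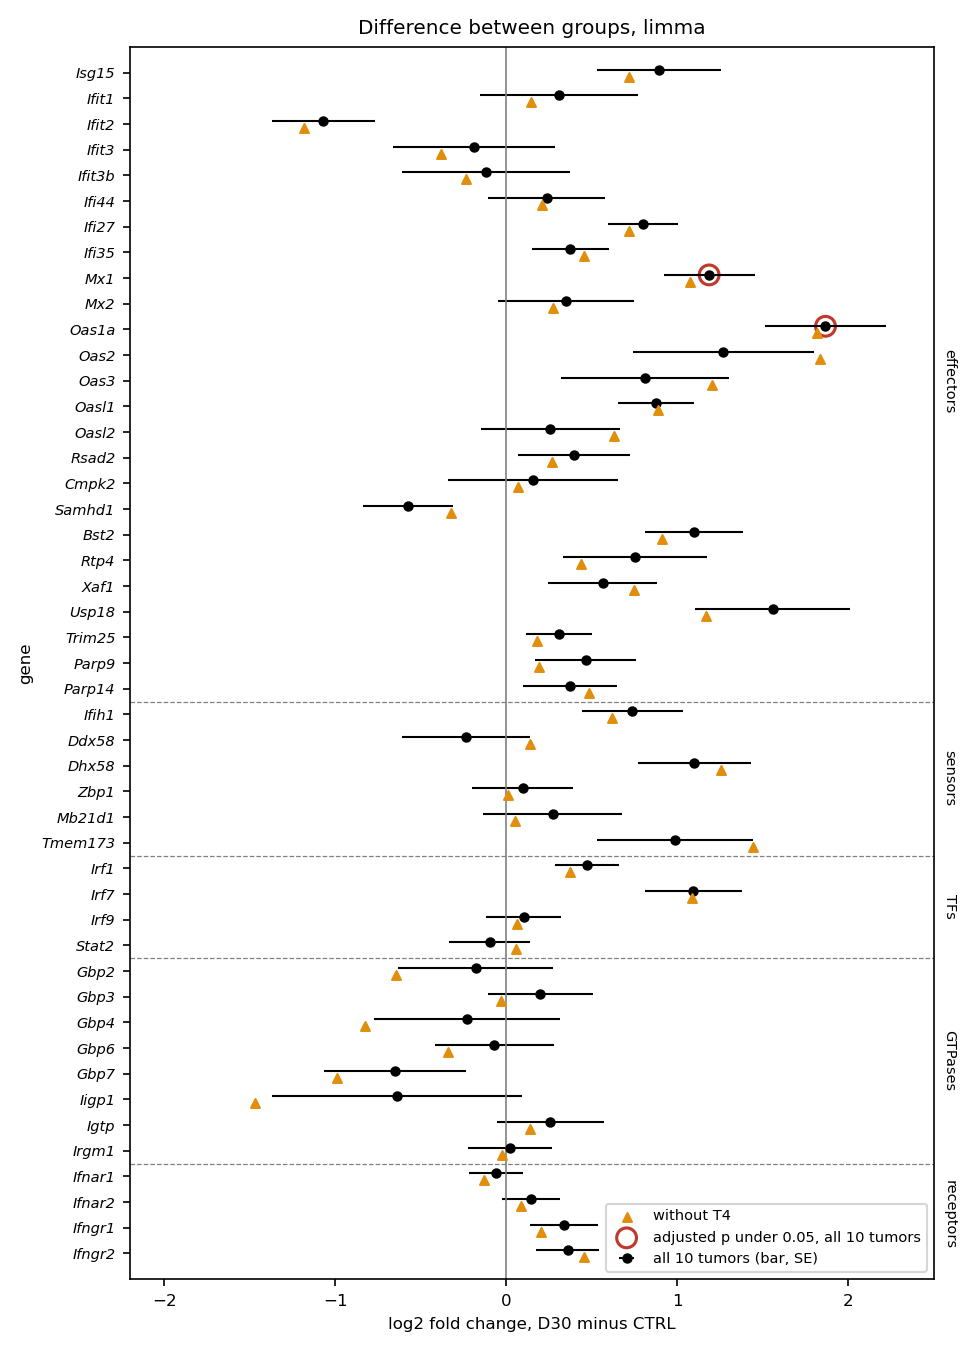
Log2 fold change (D30 minus CTRL) of each member with all 10 tumors (black points; bars, standard error of limma's fit) and without T4 (orange triangles, drawn without error). Red rings mark Oas1a (1.87) and Mx1 (1.19), the 2 members with an adjusted p under 0.05, and the triangles of the Gbp genes and Iigp1 lie to the left of their points.

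The 2'-5' oligoadenylate synthetases make the second messenger that activates RNase L, and the largest difference of all members, that of Oas1a, was in this family. Oas1a (ENSMUSG00000052776, GRCm38 chr5:120896256-120907521) measured 431, 249, 270.4, 133 and 236 normalized counts in the CTRL tumors and 1567, 723, 1037, 467 and 1083 in the D30 tumors. The lowest D30 tumor, T5, lay just above the highest CTRL tumor, N1, and the other 4 D30 tumors lay well above it. The means were 264 ± 108 (SD, n = 5) and 976 ± 415 (SD, n = 5), and the log2 fold change was 1.87 ± 0.35 (SE; limma adjusted p = 0.0141). The call held in each of the 10 fits that left 1 tumor out, with adjusted p between 0.00595 and 0.0463.

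Oas2, which lies in the same cluster on chromosome 5, measured 399.8, 492, 616, 370.0 and 503 in CTRL and 3375.5, 1463, 235, 973 and 1632 in D30. T1, T2, T5 and T7 lay above all CTRL tumors and T4 lay below them all. Its log2 fold change was 1.27 ± 0.53 (SE; adjusted p = 0.239) with all tumors and 1.83 (adjusted p = 0.00335) without T4. Oas3 (217 in T4 and 556 to 1661.5 in the other D30 tumors, against 188 to 719 in CTRL) and the synthetase-like Oasl2 (274 in T4) were likewise low in T4. The log2 fold change of Oas3 was 0.81 (adjusted p = 0.431), or 1.20 (adjusted p = 0.0925) without T4, and that of Oasl2 was 0.26 (adjusted p = 0.795), or 0.63 (adjusted p = 0.213) without T4.

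Oasl1, a synthetase-like protein without enzyme activity that restrains translation of Irf7, measured 757, 1062, 1362, 1061 and 1094 in CTRL and 1905, 1439.8, 1848, 2966 and 1749 in D30. All D30 tumors were above all CTRL tumors, with T5 the highest. The difference was 0.87 ± 0.22 (SE) on the log2 scale, and its adjusted p of 0.0560 missed the threshold. Without T4 it was 0.89 (adjusted p = 0.0302). Among the other genes of the pathway, the paralog Oas1g also rose, from 141, 60.7, 91.4, 61.1 and 121 in CTRL to 803, 340.2, 392.1, 214 and 398 in D30 (log2 fold change 2.11 ± 0.37, SE; adjusted p = 0.00863). Oas1a and Oas1g are close paralogs whose shared reads the counting may have split, so that the rise of either is uncertain.

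Mx1 (ENSMUSG00000000386, GRCm38 chr16:97447035-97462907) measured 191, 231, 272, 181 and 233 in CTRL and 467, 475, 685, 291 and 707 in D30. Every D30 tumor was above every CTRL tumor, and T5 was again the lowest of its group. The means were 222 ± 36.7 (SD, n = 5) and 525 ± 173 (SD, n = 5), with a log2 fold change of 1.19 ± 0.27 (SE; limma adjusted p = 0.0324). The call was lost in the fits without N1, N2, N4, N5, N6, T1, T2 or T7, where the adjusted p reached 0.0969, and it held without T4 or T5. With reads scaled by library size alone Mx1 was not called (adjusted p = 0.0735) and Ifit2 was called lower (adjusted p = 0.0340). Whether the Mx1 transcript gives a working protein in these mice was not tested. Mx2, the neighbor of Mx1, had a log2 fold change of 0.35 (adjusted p = 0.702), with overlapping groups.

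**Figure D3:**
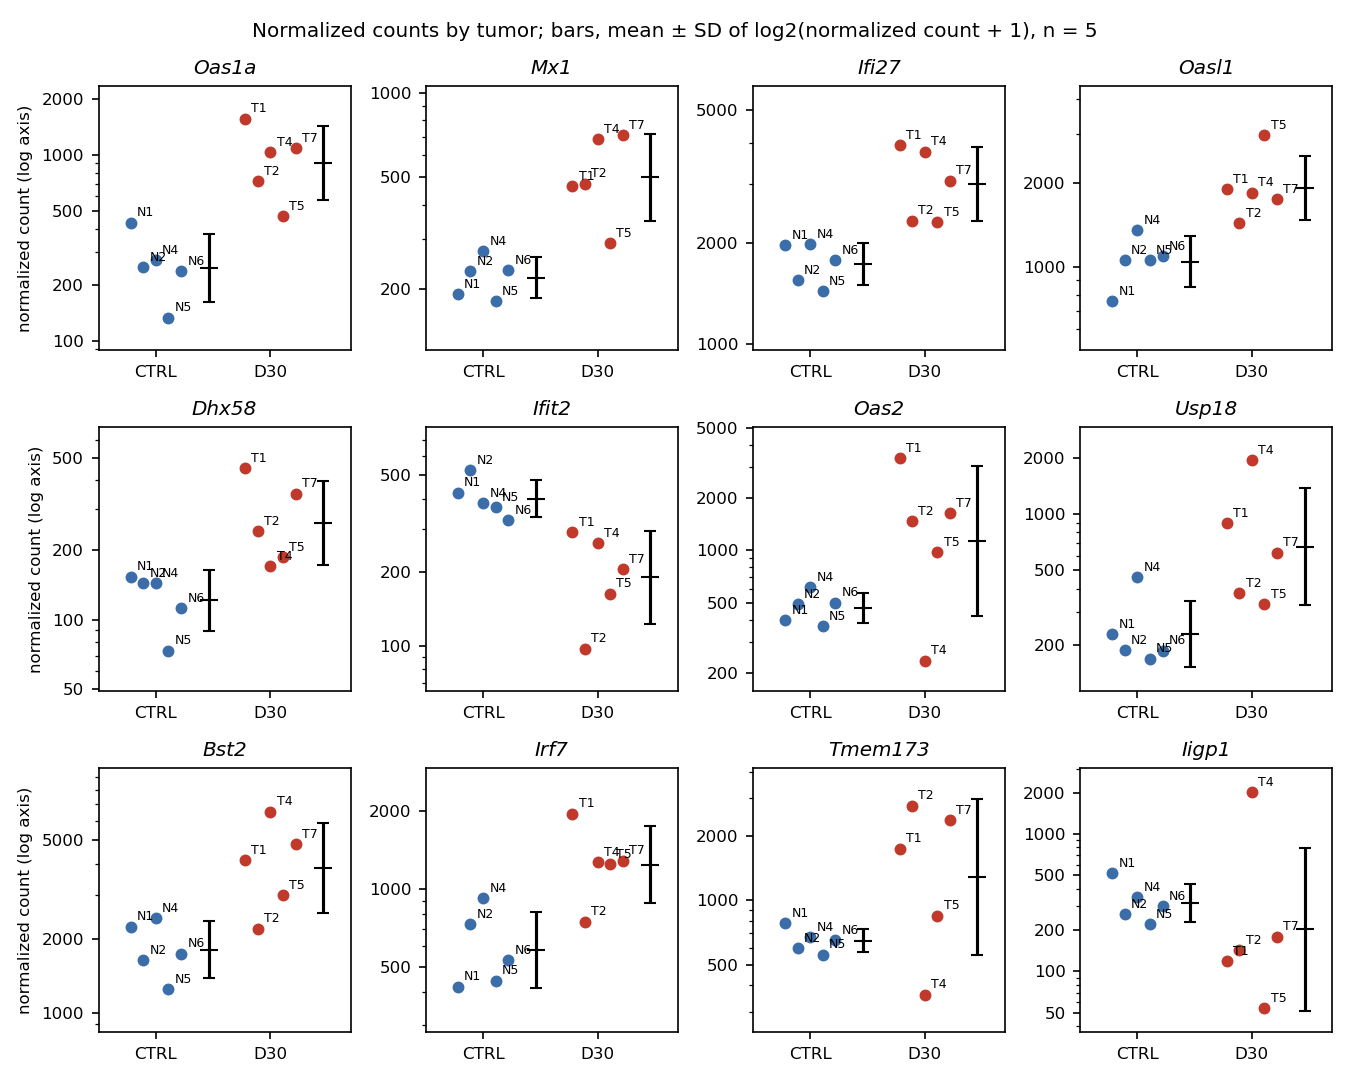
Normalized counts (log axis) of 12 members in each CTRL (blue) and D30 (red) tumor, with the tumor's column name beside each point and the mean and SD of log2(normalized count + 1) as black bars (n = 5). The groups separate for Oas1a, Mx1, Ifi27, Oasl1, Dhx58 and Ifit2, and T4 lies apart from the other D30 tumors in Oas2, Usp18, Tmem173 and Iigp1.

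Ifi27, a small protein of mitochondrial and nuclear membranes, measured 1972.5, 1549, 1985, 1436 and 1778 in CTRL and 3937, 2338, 3762, 2310.0 and 3078 in D30. The groups did not overlap, and the difference was 0.80 ± 0.20 (SE) on the log2 scale with an adjusted p of 0.0556. Without T4 it was 0.72 (adjusted p = 0.0364), and after the correction for GC content and transcript length it was 0.57 (adjusted p = 0.0832). Bst2 or tetherin, which holds budding virions at the cell surface, measured 2238, 1634, 2412, 1251 and 1739 in CTRL and 4140.5, 2196, 6536, 3007 and 4822 in D30. Here T2 lay below N1 and N4, and the other 4 D30 tumors lay above all CTRL tumors. The log2 fold change of Bst2 was 1.10 ± 0.29 (SE; adjusted p = 0.0618), and without T4 it was 0.91 (adjusted p = 0.0444). After the same correction it was 0.81 (adjusted p = 0.0773). Bst2 is also a marker of plasmacytoid dendritic cells, of whose other markers Siglech, Ccr9 and Cox6a2 ranged from 0 to 17.9 normalized counts over the tumors. Tcf4, the remaining gene of that list, measured 3364 to 4095 in CTRL and 2321 to 3167 in D30. The part of these cells in the Bst2 values was not tested.

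Isg15, a ubiquitin-like protein that is joined to other proteins, and Usp18, the protease that removes it and restrains the type I receptor, were both high in T1, T4 and T7. Usp18 measured 227, 187, 460.5, 168 and 186 in CTRL and 896, 378, 1964, 329 and 624 in D30. T2 and T5 lay below N4, and T4 was the highest of all 10 tumors. The log2 fold change of Usp18 was 1.56 ± 0.45 (SE; adjusted p = 0.0907) with all tumors and 1.17 (adjusted p = 0.0630) without T4. Isg15 measured 100.9 to 251 in CTRL and 149 to 466.1 in D30 and differed by 0.89 ± 0.36 (SE) on the log2 scale (adjusted p = 0.220). After the GC and length correction it differed by 0.60 (adjusted p = 0.319).

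The IFIT proteins bind the ends of viral RNA, and their genes stand close together on chromosome 19. Ifit2 was the member with the largest negative difference, and its neighbors had small ones. Ifit2 (ENSMUSG00000045932, GRCm38 chr19:34550694-34576419) measured 425, 527, 385, 371 and 329 in CTRL and 293, 97.4, 264, 164 and 207 in D30. Every D30 tumor was below every CTRL tumor, with means of 407 ± 75.3 and 205 ± 78.2 (SD, n = 5 each). Its log2 fold change was -1.07 ± 0.30 (SE) with an adjusted p of 0.0797, and -1.18 with an adjusted p of 0.0283 without T4. Ifit1 (155 to 793 in CTRL, 173 to 505 in D30), Ifit3 (312 to 1436 and 183 to 824) and Ifit3b (85.0 to 521 and 73.3 to 209) overlapped between groups, with N4 the highest tumor in each. Their log2 fold changes were 0.31, -0.19 and -0.12, with adjusted p between 0.786 and 0.932, and without T4 they were 0.14, -0.38 and -0.24. Ifit3 and Ifit3b are near-identical copies, and reads could be split between them. The difference between Ifit2 and its neighbors was not tested.

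The remaining effectors varied without passing the test. Trim25, the ubiquitin ligase that activates RIG-I and the most abundant member by count, measured 6189, 4718, 5921, 5656 and 5254 in CTRL and 8064, 5978, 9703, 5323 and 6006 in D30. For Trim25 the difference was 0.31 ± 0.20 (SE; adjusted p = 0.452), or 0.18 without T4. Samhd1, which depletes deoxynucleotides, measured 2494, 3943, 3352, 3472 and 3311 in CTRL and 3091, 2458, 1099, 2170.4 and 2863 in D30. It was lowest in T4 and differed by -0.57 ± 0.26 (SE; adjusted p = 0.286), or by -0.32 without T4. Rtp4, Xaf1, Ifi35, Parp9, Parp14, Rsad2, Cmpk2 and Ifi44 had log2 fold changes between 0.16 and 0.75, all positive, and adjusted p between 0.390 and 0.907. Without T4 Rtp4 was 0.44, Parp9 0.19 and Cmpk2 0.07. Of all 25 effectors 21 were higher and 4 lower, with 2 called higher and a median log2 fold change of 0.40. Scaling by library size alone left 20 of the 25 higher.

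Among the sensors, Dhx58 and Tmem173 differed the most. Dhx58 (LGP2), a helicase that tunes the signals of RIG-I and MDA5, measured 154, 144, 144, 73.5 and 112 in CTRL and 453, 240.5, 170.0, 187 and 350.5 in D30. The groups did not overlap, and T4 lay just above N1. Its log2 fold change was 1.10 ± 0.33 (SE) and its adjusted p was 0.101, or 0.0302 without T4. An antisense gene, Dhx58os, overlaps it, and whether reads were counted by strand is not given in the sources used here.

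Tmem173 (STING), the adaptor that passes on the cGAS signal, measured 779.5, 599, 674, 558 and 654 in CTRL and 1745, 2771, 362, 848 and 2378 in D30. As for Oas2, T1, T2, T5 and T7 lay above all CTRL tumors and T4 below them all. The log2 fold change was 0.99 ± 0.46 (SE; adjusted p = 0.286) with all tumors and 1.44 (adjusted p = 0.0100) without T4. The sensor that feeds it, cGAS (Mb21d1), was low in all tumors, at 28.6 to 119 normalized counts, and differed by 0.27 (adjusted p = 0.783), or by 0.05 without T4.

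The RNA sensor Ifih1 (MDA5) measured 86.8 to 218 in CTRL and 163 to 294 in D30, a difference of 0.74 ± 0.30 (SE) on the log2 scale (adjusted p = 0.219). Ddx58 (RIG-I) measured 484 to 677 in CTRL and 171 to 1042 in D30, where T4 was the lowest and T1 the highest of all tumors. Its log2 fold change was -0.23 (adjusted p = 0.799) with all tumors and 0.14 without T4. Zbp1, a sensor of Z-form nucleic acid that can start necroptosis, measured 264, 300.0, 457, 188 and 245 in CTRL and 389, 182, 379, 255 and 338 in D30. Its difference of 0.10 (adjusted p = 0.904) was smaller than its standard error of 0.29 and was -0.13 with library-size scaling and 0.0074 without T4. With all tumors 5 of the 6 sensors were higher and 0 were called, and the median log2 fold change was 0.50. With library-size scaling 4 of the 6 were higher.

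The transcription factor Irf7, the master regulator of type I interferon genes and itself induced by interferon, measured 419.8, 729, 921, 443 and 529.6 in CTRL and 1945, 748, 1263, 1243 and 1283 in D30. T2 alone among the D30 tumors lay within the CTRL range. The log2 fold change was 1.09 ± 0.28 (SE; adjusted p = 0.0604), and the call was made without N4, T2 or T4, with adjusted p down to 0.0389. Irf1, a factor induced above all by interferon gamma, measured 1721, 1213, 1448, 1323 and 1435 in CTRL and 1650.2, 1947, 2613, 1579.7 and 2223 in D30. Its difference was 0.47 ± 0.19 (SE; adjusted p = 0.218), with N1 above T1 and T5. Irf9 and Stat2, parts of the complex that binds the ISRE, differed by 0.10 and -0.10 (adjusted p = 0.857 and 0.876), or by 0.06 and 0.05 without T4. Of these 4 factors 3 were higher and 0 were called, with a median of 0.29, and with library-size scaling 2 were higher. Irf7 overlaps Phrf1 on the opposite strand, and reads of both could be mixed where strand was not used in counting.

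The interferon-inducible GTPases, which attack vacuoles of intracellular pathogens and respond strongly to interferon gamma, had a lower median difference than the effectors, although this contrast was not tested. Their median log2 fold change was -0.12, with 3 of 8 higher and 0 called, and -0.49 without T4, with 7 of 8 lower. On recovered reads with all tumors the median was positive, at 0.23 with DESeq2 and 0.24 with edgeR. After the correction for GC content and transcript length the median was -0.03. With reads scaled by library size alone 1 of 8 was higher. T4 had the highest value of all 10 tumors in each GTPase except Igtp and Irgm1. Iigp1 measured 518, 259.5, 348, 221 and 298 in CTRL and 119, 142, 2019, 53.8 and 179 in D30. Without T4 the remaining 4 D30 tumors all lay below all CTRL tumors, and the log2 fold change went from -0.64 ± 0.73 (SE; adjusted p = 0.706) to -1.47 (adjusted p = 0.0257). Without T4 and N1 it was -1.29 (adjusted p = 0.0511), and after the GC and length correction of all tumors -0.56 (adjusted p = 0.633).

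Gbp2 measured 496, 317, 534, 257 and 309.7 in CTRL and 181, 186, 1179.7, 264 and 341 in D30, with log2 fold changes of -0.18 (adjusted p = 0.881) with all tumors and -0.64 (adjusted p = 0.186) without T4. Gbp7 measured 462, 310.1, 265, 293 and 255 in CTRL and 271, 184, 508, 77.8 and 148 in D30. Its difference was -0.65 ± 0.42 (SE; adjusted p = 0.454) with all tumors and -0.99 (adjusted p = 0.0899) without T4. Gbp4 differed by -0.23 with all tumors and -0.83 without T4, and reached 699.7 in T4 and 80.2 to 91.6 in the other D30 tumors, against 113 to 282 in CTRL. Gbp4 overlaps Gbp8 and Gbp9 on the same strand, and this family shares sequence, so that its reads may be split. The remaining GTPases Gbp3, Gbp6 and Igtp had log2 fold changes of 0.20, -0.07 and 0.26, with adjusted p between 0.724 and 0.944, and without T4 they were -0.03, -0.34 and 0.14. Gbp6 overlaps Gm43302 and Igtp overlaps Irgm2, as Parp9 does Dtx3l on the opposite strand, which leaves these values uncertain too.

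The immunity-related GTPase Irgm1, a regulator of the others, measured 916, 1169, 1336, 1161 and 1105 in CTRL and 1902, 966, 1294, 707 and 1173 in D30. Its log2 fold change of 0.02 (adjusted p = 0.978) was -0.20 with library-size scaling and -0.02 without T4. T4 was also the D30 tumor with the highest sum of the NK cell marker list and the most reads of interferon gamma. The summed NK cell markers came to 167 normalized counts in T4 and 1.14 to 26.3 in the other D30 tumors, against 36.3 to 89.4 in CTRL, and Ifng to 17.3 in T4 (15 reads) and at most 1.83 in any other tumor. Within the NK cell list, Gzma (70.6), Gzmb (39.3), Klrk1 (33.5) and Prf1 (18.5) were higher in T4 than in any other tumor. Klrb1c (3.47 in T4, 5.14 in T1) and Ncr1 (1.16 in T4, 2.89 in N2) were not. Iigp1, Gbp6 and Gbp7 (GC content 39.3%, 41.1% and 41.7%) lay in the lowest eighth of GC content, which was raised in T4 and N1. The other GTPases had a GC content of 42.8% to 49.5%. The part of NK cells, of other cells or of the GC trend in the GTPase values was not tested.

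The receptor chains were abundant, and their groups overlapped. Of the 4 chains 3 were higher and 0 were called, with a median log2 fold change of 0.24, and with library-size scaling 2 were higher. Ifngr1 measured 4692, 3262, 3247, 3144 and 3375 in CTRL and 4641, 4238, 6438, 3734 and 3578 in D30, a log2 fold change of 0.34 ± 0.20 (SE; adjusted p = 0.421), or 0.20 without T4. Ifngr2, the second chain of the interferon gamma receptor, measured 2423, 2803, 3064, 2755 and 2784 in CTRL and 3582, 4765, 2709.9, 2973 and 4031 in D30, a difference of 0.36 ± 0.19 (SE; adjusted p = 0.345). For the type I receptor, Ifnar1 measured 3482, 3464, 3089, 3458 and 3045 in CTRL and 3347, 3113, 3889, 2723 and 2903 in D30, with a log2 fold change of -0.06 ± 0.16 (SE; adjusted p = 0.889), or -0.13 without T4. Ifnar2 ranged from 967 to 1176 in CTRL and 1002 to 1373 in D30 (0.15, adjusted p = 0.709, or 0.09 without T4).

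The interferon genes themselves were at or near 0. Ifna1, Ifna2, Ifna4, Ifnl2 and Ifnl3 had 0 reads in every tumor, which allows up to 3 reads in each. Ifnb1, the first type I interferon made upon sensing, had 0 to 4 reads per tumor, with 0, 1.45, 0, 0 and 1.71 normalized counts in CTRL and 2.06, 1.15, 4.63, 0 and 4.26 in D30 (adjusted p = 0.440). Ifng gave 0, 0.723, 1.83, 1.77 and 0.856 in CTRL and 0, 0, 17.3, 0 and 1.07 in D30. Depth limits these genes, and a difference of their levels between groups was not detectable. Ifne, an epithelial type I interferon, reached 43.2 in T1 and 21.98 in T4 and lay between 1.07 and 10.3 in the other tumors (adjusted p = 0.402).

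Of 88 further genes of the pathway 81 were tested, 44 of them higher and 37 lower in D30, with 1 called higher (Oas1g), against 1.4% of all tested genes, and 0 lower, against 1.36%. Their median log2 fold change was 0.03. The interferon gamma-induced chemokines Cxcl9 and Cxcl10 differed by -0.21 (adjusted p = 0.880) and 0.07 (adjusted p = 0.958), or by -0.64 and -0.10 without T4, with Cxcl9 highest in T4, at 492.7, and lowest in T5, at 43.5. By group, 29 of 51 further interferon-stimulated genes were higher, and 4 of 12 sensor adaptors, kinases and Toll-like receptors, 4 of 9 kinases and transcription factors, 2 of 4 feedback inhibitors and 2 of 2 other receptors. Beside Oas1g, the helicase Ddx60, named after its values were seen, had every D30 tumor above every CTRL tumor (127 to 669 against 56.7 to 123; log2 fold change 1.42 ± 0.43, SE; adjusted p = 0.106). Nlrc5, an activator of class I antigen presentation that was named in the same way, had every D30 tumor below every CTRL tumor (108 to 163 against 183 to 243; -0.51, adjusted p = 0.279). Over all tested genes 2.87% lay above and 3.32% below in this way, so that these few genes are near the background.

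Per length of exon, the members spanned from 9.59 (Cmpk2) to 3320 (Bst2) normalized counts per kb as means over all 10 tumors, with a median of 162. The 4 members Bst2, Ifi27 (1646), Ifngr1 (1417) and Trim25 (1092) exceeded 1000, and 19 lay under 100. The highest sensor was Tmem173, at 415, and the lowest was Mb21d1, at 15.3. Among the transcription factors Irf1 (431) stood above Irf7 (252.2), and among the GTPases Irgm1 (202) above Gbp2 (162). Of the receptors, Ifngr1 and Ifngr2 (847) were above Ifnar1 (547) and Ifnar2 (335). No difference between genes was tested.

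**Figure D4:**
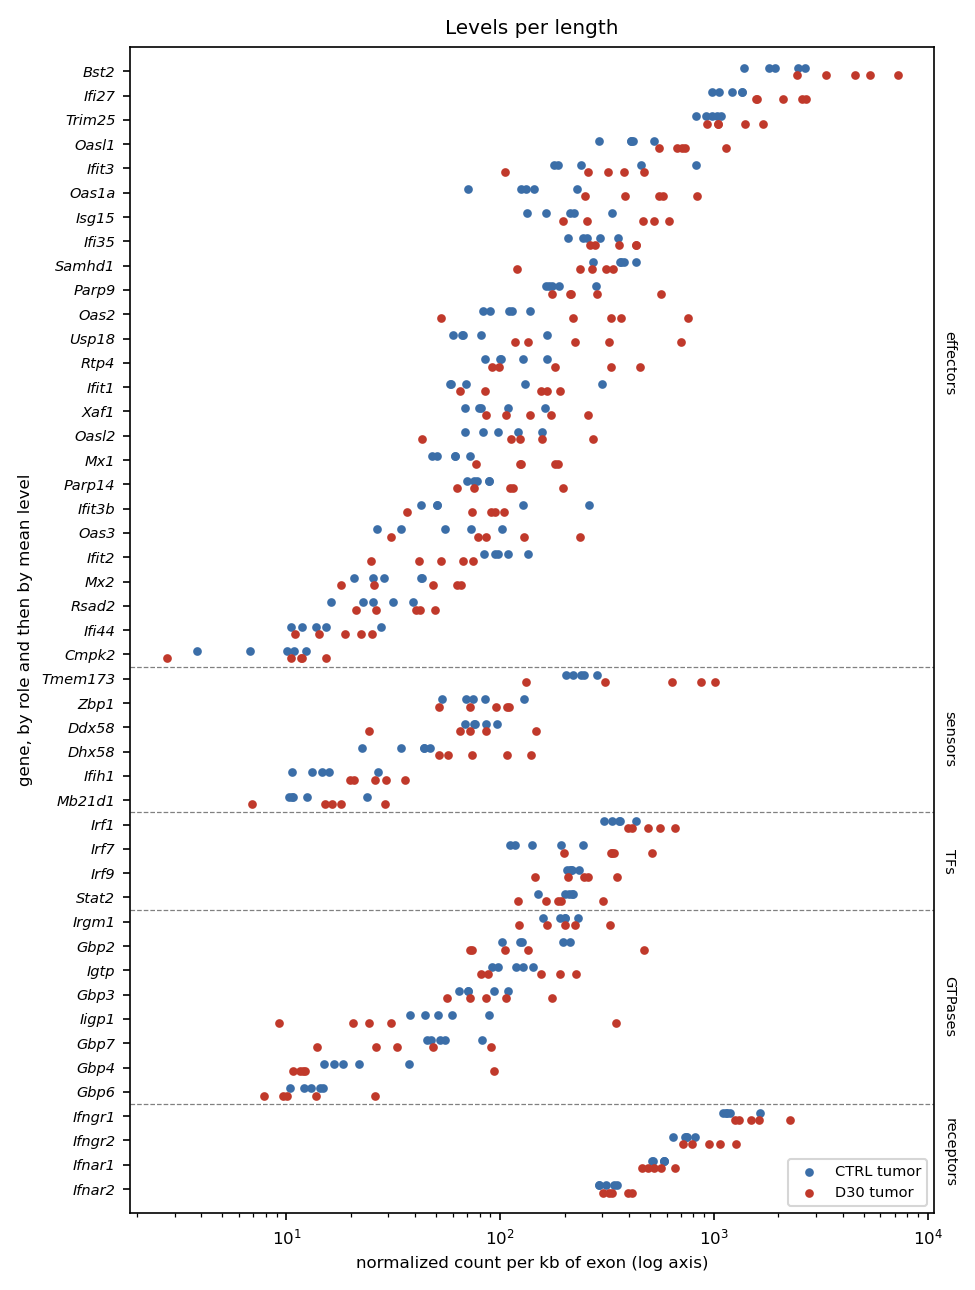
Normalized counts per kb of exon (log axis) of the 47 members in each CTRL (blue) and D30 (red) tumor, ordered by role and then by mean level. Bst2, Ifi27 and Trim25 lead the effectors, the receptor chains form narrow clusters, and the single D30 tumor far to the right in Iigp1 and Gbp4 is T4.

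Markers of other cells differed in level between the tumors. Of them 2 were called lower, where 1.36% of all tested genes were, and 0 higher, where 1.4% of all tested genes were. Of the 9 macrophage and monocyte markers 8 were lower in D30 and 1 was called lower, the receptor Csf1r (-1.06, adjusted p = 0.0449). The Csf1r call held without T2 or T4. It was lost in every other fit that left 1 tumor out, where limma's adjusted p reached 0.147. The summed level of the 9 markers ranged from 32808 to 64474 normalized counts in CTRL and from 17306 to 75589 in D30, where T4 held the highest sum. All 7 T cell markers were lower and 0 were called, with sums between 290.4 and 579 in CTRL and between 175 and 276 in D30. The score of these 7 genes, which weighs each gene alike, overlapped, at 0.13 to 1.18 in CTRL and -1.73 to 0.19 in D30. Of 6 NK cell markers 5 were tested, and all 5 were lower with 0 called. The 5 neutrophil markers were higher with 0 called, with sums between 598 and 2890 in CTRL and between 714 and 12844 in D30, the highest in T5. Of the 5 tumor epithelium markers 4 were higher with 0 called, and their sums were 193282 to 307827 in CTRL and 312104 to 423234 in D30. These sums did not overlap, but they came mostly from the keratins Krt8, Krt18 and Krt19. The score of the same 5 genes, which weighs each gene alike, did overlap, at -0.43 to 0.31 in CTRL and -0.73 to 0.44 in D30. Only Krt18 had every D30 tumor above every CTRL tumor. Of the 7 fibroblast markers all were lower with 0 called, with sums between 76308 and 135218 in CTRL and between 26700 and 102388 in D30. Of the 5 endothelial markers 4 were lower, and Cdh5, the cadherin of endothelial junctions, was called lower (-1.45, adjusted p = 0.0117). The sums of the 5 lay between 10389 and 18223 in CTRL and between 5169 and 9368 in D30. Cdh5 was the largest part of these sums in every tumor. The score of the same 5 genes overlapped, at 0.07 to 0.54 in CTRL and -1.08 to 0.20 in D30. Among markers of other blood cells, 4 of 4 pan-leukocyte, 5 of 6 dendritic, 3 of 5 plasmacytoid dendritic and 3 of 4 B cell markers were lower, with 0 called. Of the tested acinar markers 4 of 5 were lower with 0 called, with sums between 270.4 and 48467 in CTRL and between 144 and 4477 in D30. The part of these cells in the levels of the interferon-stimulated genes was not tested.

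**Figure D5:**
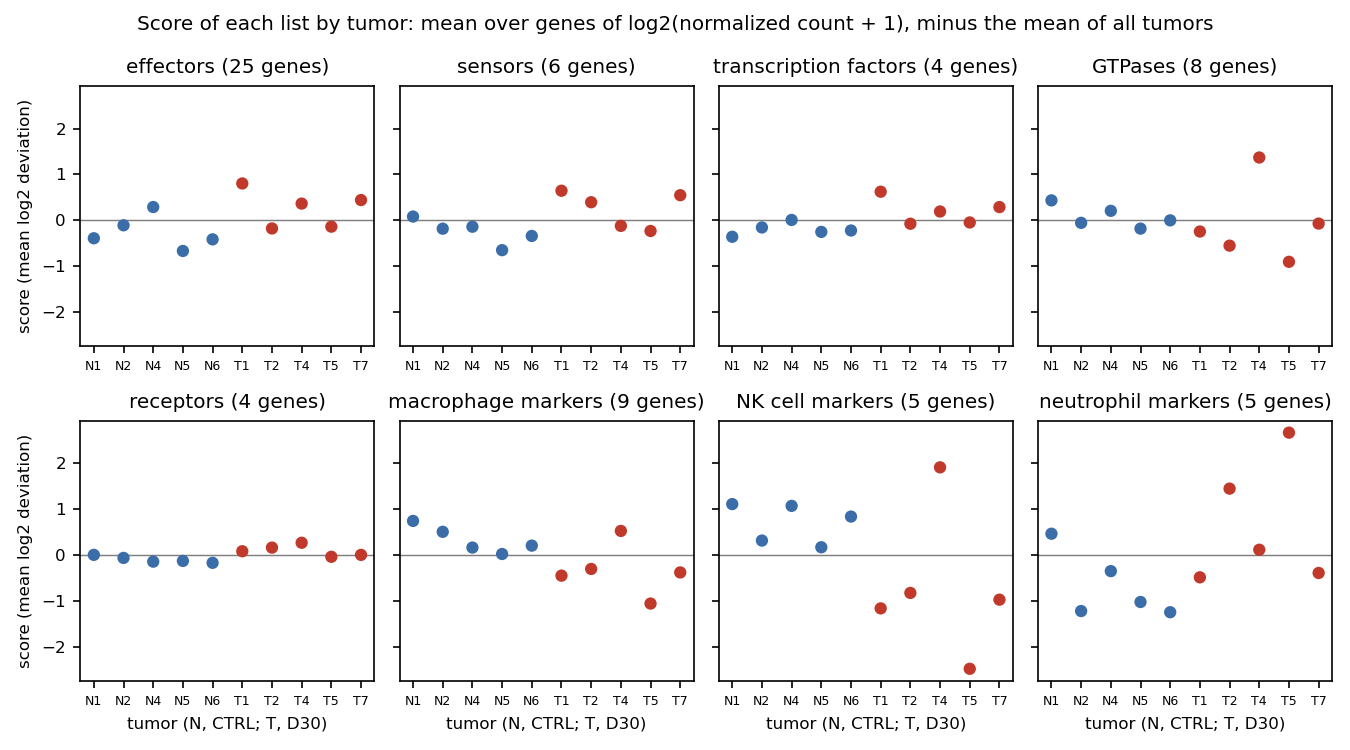
Score of each role group and of 3 marker lists in each tumor, the mean of log2(normalized count + 1) over the genes of the list minus the mean of all tumors (blue, CTRL; red, D30). The effector score ranges from -0.67 to 0.29 in CTRL and from -0.18 to 0.80 in D30, and T4 has the highest GTPase score, 1.37, as well as the highest NK cell score.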

How the data were processed

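RNA from 5 CTRL and 5 D30 tumors had been sequenced in paired 150 bp reads from a strand-specific library. The submitters' processing notes name CASAVA, FastQC, Trim Galore, STAR 2.7.0e, DESeq2 and the GRCm39 build, whereas the study's methods name hg38, a human build, and the table lists mouse genes. The build used is thus uncertain, and the strand setting of the counting is not given in the sources used here. The authors deposited normalized counts per gene, a signal in which reads had been divided by a size factor for each tumor. Whole reads were recovered from 100.0% of values in every column within a tolerance of 0.1 reads. Recovered reads ranged from 29192261 to 42122304 per tumor, and precision was limited by the spread between tumors. Columns carried N or T and a number, and were mapped to groups but not to single labelled samples: N was read as normoglycemic, and T was taken as D30 because it was the only other group. Nothing in the sources ties replicates to separate litters, and p-values measure the spread between these tumors.

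The 24560 of 55359 genes whose normalized counts averaged 1 or more were tested on log2(value + 1) with limma 3.58.1 (moderated test with a mean-variance trend, R 4.3.3) and Benjamini-Hochberg adjustment over all of them, with calls at an adjusted p under 0.05. The pseudocount makes fold changes of low genes too small. Single genes were also compared by an exact two-sided permutation test over 252 assignments of tumors. Names came from GENCODE M21 (GRCm38), which matched 52083 IDs (94.1%), and coordinates are those of that annotation or of RefSeq (GRCm38.p6), not of the alignment. GC content and length were available for 99.0% of tested genes. The scripts were tested on simulated data.

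Alternatives were edgeR 4.0.16 (quasi-likelihood), DESeq2 1.42.0 and limma-voom on recovered reads, scaling by library size, upper quartile or TMM, pseudocounts of 0.5 and 5, no filter, a mean of at least 10, and each tumor left out in turn. Leaving out T4 with T5 or T4 with N1, and a correction for GC content and transcript length, were chosen after seeing the data. The members, the 88 further pathway genes and the 12 marker lists were chosen with earlier results of these data known. Values of every tumor are given for members that were called, did not overlap between groups, had the 4 largest positive or negative differences, led their role group per kb, were among the 3 most abundant or were called by edgeR or DESeq2 alone, which gave 22 members. Isg15, Oas3, Oasl2, Ifit1, Ifit3, Ifit3b, Mx2, Ddx58, Ifih1, Mb21d1, Gbp4, Irf9, Stat2 and Ifne were described further after their values were seen. Some items of the pathway and of the cell line are not reported here.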

Additional observations from a re-analysis of the deposited data

Results flagged for a closer look

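In 5 of the 56 group values examined, 1 tumor stood apart from the other 4 of its group, with a gap to the nearest of them of more than 0.71 of the group's whole range. For normally distributed values this limit is passed in about 1 of 20 groups. That rate cannot be set against the 5 found here, since most values examined were normalized counts without logs. Some of the members were also chosen for large differences. Iigp1 in D30 measured 2019 normalized counts in T4, where the next tumor had 179. Gbp2 in D30 measured 1180 in T4 and 341 in the next tumor. Usp18 in CTRL measured 460.5 in N4 and 227 in the next. Gbp7 measured 462 in N1 and 310.1 in the next CTRL tumor. Ifngr1 measured 4692 in N1 and 3375 in the next CTRL tumor.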

How the results depend on the processing

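Of 506 values of the 22 members under alternatives, 430 kept their direction and their side of the threshold, 51 passed the threshold where the reported value did not, 9 no longer passed and 16 changed sign. The count of members called, 2, became 4 with a mean of at least 10, 5 with edgeR, 11 with DESeq2 and 4 with limma-voom, 4 after the GC and length correction, 14 without T4 and T5 and 8 without T4 and N1. With library-size scaling it stayed at 2, but with Oas1a higher and Ifit2 lower in place of Oas1a and Mx1 higher. Leaving out 1 tumor gave 1 to 11 called members, with 11 without T4, 4 without T5, 3 without T2 and 1 without N1, N2, N5, N6, T1 or T7. Over all genes the count of calls, 678, became 687 with a mean of at least 10, 707 with edgeR and 699 with limma-voom. It was 1858 with DESeq2, 1149 after the correction, 2418 without T4 and T5 and 1584 without T4 and N1. It ranged from 279 to 1573 with 1 tumor left out. The count was 279 without N2, 340 without N5, 332 without N6, 433 without T7 and 1573 without T4. The shares of all genes called higher and lower were 2.21% and 1.75% with a mean of at least 10. With limma-voom they were 2.28% and 1.8%. They were 5.09% and 4.87% without T4 and T5, and 3.59% and 2.9% without T4 and N1. The median of the members moved between 0.20 and 0.44 with 1 tumor left out and was 0.08 with library-size scaling, which moved the median of all genes from -0.06 to -0.27 on the log2 scale. Of the 47 members 35 were then above the median of all genes, against 36 before. Sign changes were as follows, and their cause was not tested. Zbp1 went to -0.13 with library-size scaling, -0.011 without T4 and N1, and with 1 tumor left out ranged from -0.046 (N5) to 0.27, negative also without T1. Gbp2 went to 0.18 with edgeR, 0.17 with DESeq2 and with 1 tumor left out ranged from -0.64 to 0.030, positive without T1 or T2. Iigp1 went to 0.63 with edgeR and 0.61 with DESeq2, which gave it no adjusted p. Irgm1 went to -0.20 with library-size scaling, -0.10 without T4 and N1 and with 1 tumor left out ranged from -0.16 to 0.19, negative without N1, T1 or T4. Ifnar1 went to 0.028 after the correction. No paired analysis was possible because the columns carry no replicate number of the labels. Depth limited the values of the interferon genes.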
